A study of Homo sapiens with 4 samples.

Results

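Wnt ligands, their receptors, their secreted and membrane inhibitors and the feedback genes of the pathway were followed in SUM159, a mesenchymal-like breast cancer cell line, after knockdown of SHARP (SPEN). The genes were taken by symbol: all WNT, FZD, SFRP, DKK and RSPO genes of the deposited table, together with LRP5, LRP6, AXIN1, AXIN2, LEF1, TCF7, TCF7L1, TCF7L2, RNF43, ZNRF3 and APCDD1. This gave 52 genes of 23394. RNA-seq libraries were made from polyadenylated RNA of cells grown in F12 medium with serum, insulin and hydrocortisone. The 2 control libraries came from cells given DMSO and the 2 knockdown libraries from cells given doxycycline, which induces a small interfering RNA against SHARP. The sources used here do not give the dose or length of treatment, whether control cells carried the inducible construct, or whether replicates were separate cultures. An effect of doxycycline and an effect of the knockdown cannot be told apart in these groups, and p-values then reflect only how far these libraries vary, possibly for technical reasons.

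Wnt proteins are secreted lipid-modified ligands that bind Frizzled receptors together with the co-receptors LRP5 and LRP6. In the canonical branch this stops the destruction complex, built on the scaffold Axin, from degrading beta-catenin, which then joins TCF and LEF factors on target genes. Several targets, among them AXIN2, RNF43, ZNRF3, DKK1 and APCDD1 in many tissues, encode brakes on the pathway. In breast tissue Wnt signalling is best known for its part in the maintenance of mammary stem cells. SPEN is a large corepressor with RNA-binding domains, best known for silencing targets of the Notch factor RBPJ.

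The libraries held 15641296 to 17197715 counts. SPEN had 187 and 184 CPM (the count divided by a library size adjusted with edgeR's TMM factors) in the controls and 107 and 108 CPM in the knockdown. Both knockdown libraries lay below both controls, the direction their labels give (log2 fold change -0.78 with SE 0.035, adjusted p = 1.39e-10 by the quasi-likelihood test of edgeR). The mesenchymal genes VIM, AXL, ZEB1, CD44 and FN1 each rose, from a sum of 6518 and 6511 CPM in the controls to 8862 and 8806 CPM in the knockdown. Of the epithelial markers CDH1, GRHL2 and KRT19 were at 0 throughout. The 6 leukocyte markers, mostly CD68, reached 30.4 and 34.9 CPM in sum without the knockdown and 41.8 and 39.8 CPM with it. The part of these differences in the results was not tested. In what follows a gene is called when its adjusted p is under 0.05, over the 13915 genes tested. Fold changes are knockdown over control, and ± is the SD of 2 libraries.

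A partial Wnt toolkit was present in these cells. Of the 52 genes, 29 had enough counts to be tested, 12 had counts below the filter and 11 had 0 counts in every library. The 11 were the ligands WNT1, WNT2, WNT3A, WNT6, WNT7A and WNT9B, the receptor FZD10, the R-spondins RSPO1, RSPO3 and RSPO4, which amplify Wnt signals, and the decoy SFRP4. A level of up to 3 counts, 0.172 to 0.195 CPM in a library, is allowed by a count of 0. The 12 below the filter (WNT5B, WNT8A, WNT8B, WNT10A, WNT11, WNT16, SFRP1, SFRP2, SFRP5, DKK2, DKK4 and RSPO2) had at most 11 counts in a library. No secreted Frizzled-related protein and no R-spondin could therefore be compared between the groups.

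Among the 29 tested genes, 8 rose and 7 fell. DKK1, which passed the filter on low counts only through the knockdown libraries, stood out among the rises, and APCDD1, FZD2 and FZD1 among the falls. The share of Wnt genes called, 51.7%, lay near the 50.1% of all tested genes, and the same held by direction, with 27.6% higher against 25.1% and 24.1% lower against 24.9%. The number of calls was thus near the background of this comparison and is no result about the Wnt genes. Their median log2 fold change was 0.13, against 0.0012 for all tested genes, and the median size was 0.24 against 0.22. Of the 15 called genes, 5 differed by less than 1.2-fold, a share of 33.3% against 35.3% of all called genes. Without control replicate 1 or without control replicate 2, only 9 of the 15 kept their call in either case. Calls among all tested genes also became fewer when either control was left out, but by a smaller share. With scaling by library size alone 6 Wnt genes rose and 8 fell, so that 42.9% of calls were higher in place of 53.3%. Calls among all tested genes shifted the same way, to 2966 higher and 4101 lower from 3499 and 3471, so this shift is no trait of the Wnt genes. AXIN2, DKK1, FZD1, FZD2, FZD4 and FZD5 were called under each of the 13 alternative settings run.

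**Figure D1:**
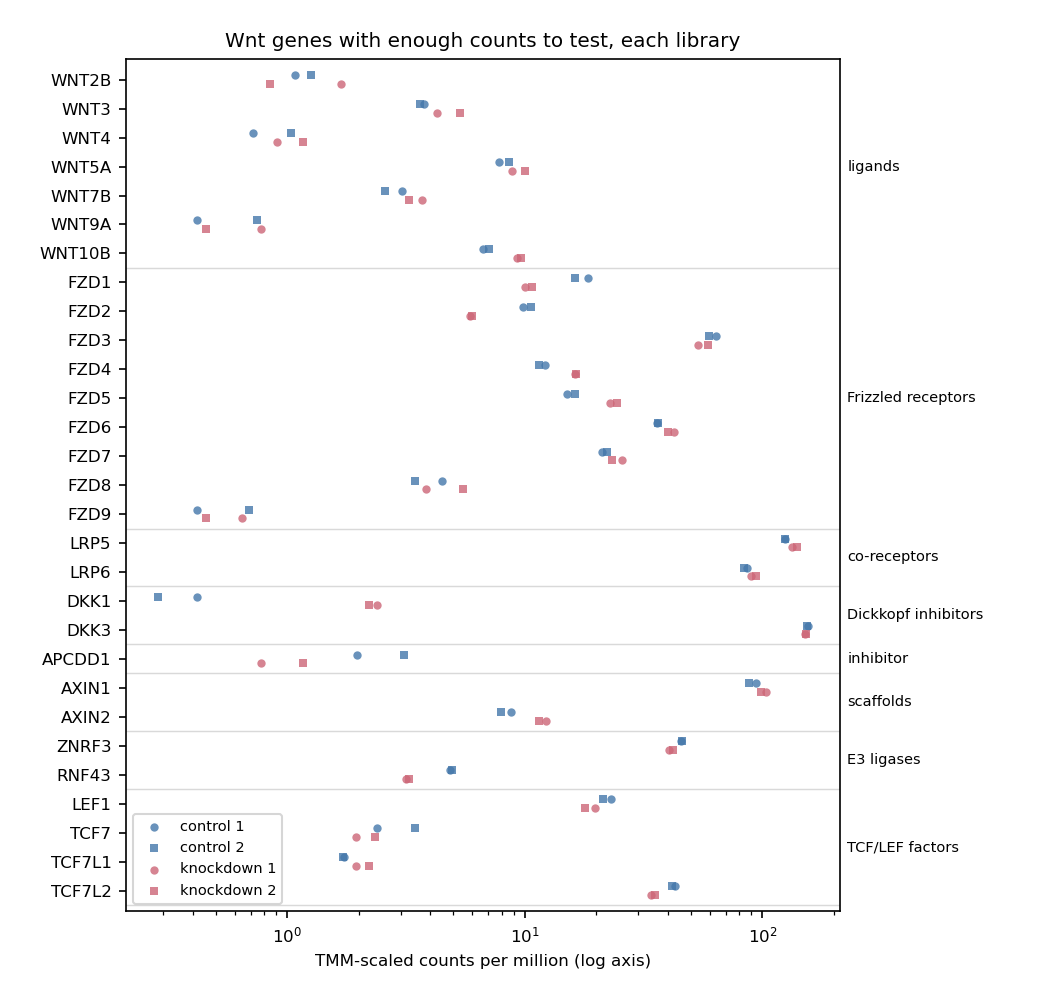
TMM-scaled CPM (log axis) of the 29 tested Wnt genes in each of the 4 libraries, grouped by role, controls in blue and knockdown in red. DKK1 moved from 0.417 and 0.287 CPM to 2.40 and 2.21 CPM, while most other genes stayed close to their control level.

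**Figure D2:**
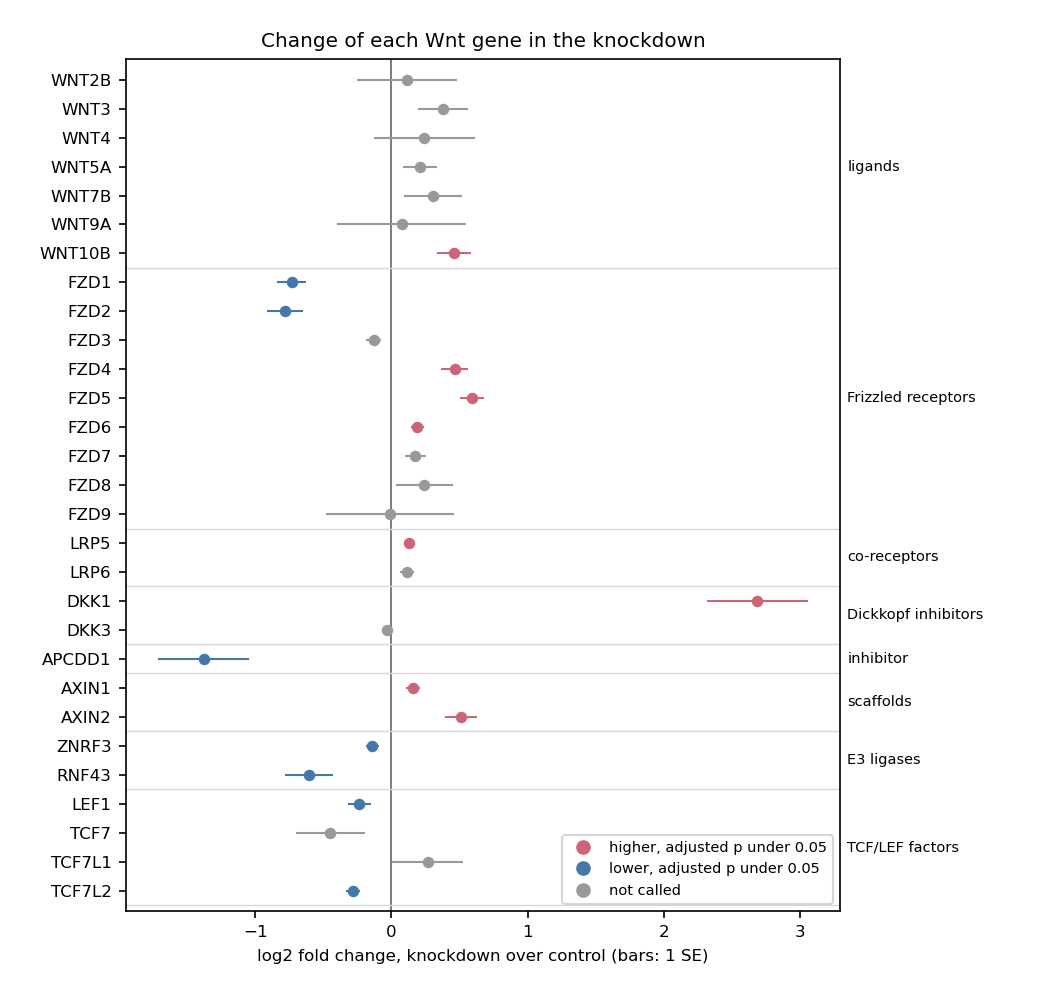
Log2 fold change of each tested Wnt gene, knockdown over control, with bars of 1 SE from edgeR's fit and colour giving the call. DKK1 lies at 2.69 and APCDD1 at -1.38, and the other genes lie between -0.78 and 0.59.

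Of the 19 WNT ligand genes, 7 were tested and only WNT10B was called. With so few genes, that count is no result beside the 50.1% called among all tested genes. WNT10B, a canonical ligand known from mammary and bone biology, had 6.68 and 7.05 CPM in the controls and 9.26 and 9.60 CPM in the knockdown. The groups did not overlap, and the level rose 1.37-fold (log2 fold change 0.46, SE 0.13, edgeR adjusted p = 0.0070). Without control replicate 1 the edgeR adjusted p was 0.0688, and with DESeq2 it was 0.0768.

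WNT5A, the main ligand of the non-canonical branch, had 7.75 and 8.54 CPM in the controls and 8.81 and 10.1 CPM in the knockdown. The ranges lay next to each other, and WNT5A was not called (log2 fold change 0.21, SE 0.13, edgeR adjusted p = 0.192). WNT3 was at 3.68 ± 0.102 and 4.80 ± 0.741 CPM (edgeR adjusted p = 0.100, and 0.0464 without knockdown replicate 1). WNT7B was at 2.81 ± 0.325 and 3.47 ± 0.315 CPM. With all libraries, no ligand other than WNT10B passed the test. The groups of WNT3, WNT5A and WNT7B did not overlap either, so separation of the libraries alone did not mark a called gene. WNT2B, WNT4 and WNT9A had 7 to 26 counts in a library and SEs of 0.37 to 0.48, and their groups overlapped.

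Levels of different genes were set side by side as CPM per kilobase of annotated exon, since longer transcripts collect more reads. On that scale WNT10B was the most abundant tested ligand in every library, at 2.61 ± 0.101 in the controls and 3.59 ± 0.0928 in the knockdown. WNT5A followed at 1.10 ± 0.0758 and 1.28 ± 0.120. The 7 tested ligands summed to 5.40 and 5.70 CPM per kilobase in the controls, and to 6.96 and 7.32 with the knockdown, of which WNT10B made up 47.0% to 50.6%.

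The Frizzled receptors, which bind Wnt proteins at the cell surface, moved in opposite directions. Of 9 tested, FZD4, FZD5 and FZD6 rose and FZD1 and FZD2 fell. Among all tested genes 25.1% rose and 24.9% fell, so calls in both directions were common and are no trait of the receptors. FZD1 had counts of 308 and 283 under DMSO and of 155 and 166 under doxycycline, or 17.3 ± 1.51 CPM against 10.4 ± 0.52 CPM. Its close relative FZD2 had 9.78 and 10.6 CPM in the controls and 5.89 and 5.97 CPM in the knockdown. For each of these genes both knockdown libraries lay well below both controls, and the falls were of like size. The log2 fold change was -0.73 (SE 0.11) for FZD1 and -0.78 (SE 0.13) for FZD2, with edgeR adjusted p of 4.87e-05 and 1.36e-04.

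FZD5, a receptor of canonical signalling, had 15.1 and 16.2 CPM in the controls and 22.9 and 24.3 CPM in the knockdown. All knockdown values lay above all control values, a 1.51-fold rise (log2 fold change 0.59, SE 0.087, edgeR adjusted p = 4.66e-05). FZD4, which also serves as the receptor of norrin, had 12.1 and 11.5 CPM in the controls and 16.2 and 16.4 CPM in the knockdown (log2 fold change 0.47, SE 0.10, edgeR adjusted p = 0.00121). Exons of FZD4 overlap those of PRSS23, a serine protease gene on the other strand, over 1399 bases. PRSS23 rose from 11.8 to 23.8 CPM, and since use of strand in the counting is not stated, reads of FZD4 and PRSS23 cannot be told apart there.

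FZD6, a receptor linked to planar polarity and to restraint of the canonical branch, had 36.1 and 36.4 CPM in the controls and 42.5 and 40.2 CPM in the knockdown. This 1.14-fold rise passed the test with all libraries (log2 fold change 0.19, SE 0.051, edgeR adjusted p = 0.00548). Its edgeR adjusted p was 0.0621 without control replicate 1, 0.0582 without control replicate 2 and 0.0811 without knockdown replicate 1, and DESeq2 gave 0.112.

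Among the other receptors, FZD7, the third member of the subfamily of FZD1 and FZD2, had 21.2 and 22.1 CPM in the controls and 25.6 and 23.4 CPM in the knockdown and was not called (log2 fold change 0.18, SE 0.077, edgeR adjusted p = 0.0701). FZD3, a planar polarity receptor, had 63.7 and 59.5 CPM in the controls and 53.7 and 58.8 CPM in the knockdown (log2 fold change -0.13, SE 0.053, edgeR adjusted p = 0.0541). Without knockdown replicate 2 the edgeR adjusted p was 0.0304 for FZD7 and 0.0228 for FZD3. FZD8 had 59 to 85 counts and FZD9 had 7 to 12 counts in a library, and for both the groups overlapped. FZD1, FZD2 and FZD7 share similar coding sequence, and how reads that match several of them were counted is not stated. Their deposited values lay within 0.004 of whole numbers.

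Summed over the 9 receptors, Frizzled transcripts were at 31.4 and 31.5 CPM per kilobase in the controls and at 32.0 in both knockdown libraries. The total thus differed little while its make-up did. FZD1 and FZD2 together made up 23.1% and 23.4% of the sum without the knockdown and 13.2% and 13.7% with it. This pair was pooled after values were seen, so its lower joint share restates the falls of its members and is no separate result. FZD7, of the same subfamily, was left out of the pool. It made up 17.5% and 18.2% of the sum under DMSO, against 20.7% and 18.9% under doxycycline. FZD6 was the most abundant receptor per kilobase in every library, at 8.91 ± 0.0594 in the controls and 10.2 ± 0.401 in the knockdown, followed by FZD7 at 5.61 ± 0.177 and 6.34 ± 0.406. In the controls FZD2 (4.83 ± 0.278) and FZD3 (4.47 ± 0.216) came next, with means that differed by less than their summed SDs, as did those of FZD1 (2.48 ± 0.217) and FZD5 (2.33 ± 0.121). In the knockdown FZD5 (3.52 ± 0.156) lay above FZD2 (2.81 ± 0.0261) and FZD1 (1.49 ± 0.0747). Exon lengths came from a GRCh38 annotation and count every annotated exon, so the order depends on that choice, and no test was made between receptors.

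**Figure D3:**
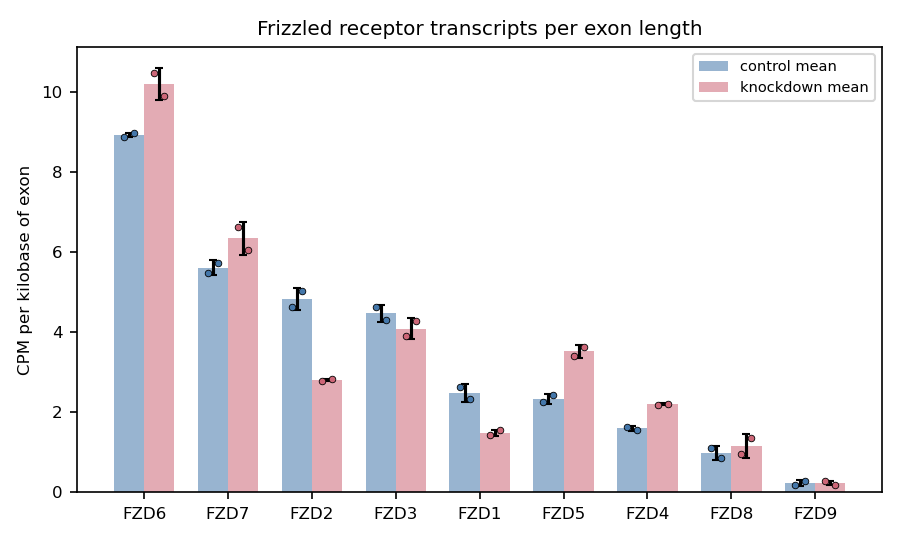
CPM per kilobase of annotated exon of the 9 tested Frizzled genes, bars for the mean of 2 libraries, whiskers for the SD and points for single libraries. FZD1 and FZD2 are lower and FZD5 and FZD4 higher in the knockdown, and the 9 genes sum to 31.4 in the control mean and 32.0 in the knockdown mean.

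The co-receptors LRP5 and LRP6, which carry the canonical signal beside Frizzled, moved little. LRP5 had 124 and 125 CPM in the controls and 133 and 139.5 CPM in the knockdown, a 1.10-fold rise (log2 fold change 0.13, SE 0.039, edgeR adjusted p = 0.0109). The call was lost without control replicate 1 (edgeR adjusted p = 0.0934) and with scaling by library size alone (0.0797). LRP6 had counts of 1441 and 1458 under DMSO and of 1383 and 1449 under doxycycline, or 84.8 ± 1.63 CPM against 91.8 ± 3.17 CPM. It was not called (log2 fold change 0.12, SE 0.049, edgeR adjusted p = 0.0631, and 0.0287 without knockdown replicate 1).

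Among the inhibitors, DKK1 showed the largest fold change of the 29 genes. Dickkopf-1 is a secreted antagonist that binds LRP5 and LRP6 and so blocks canonical signalling, and its gene is itself a Wnt target in many cells. DKK1 counts were 7 and 5 under DMSO and 37 and 34 under doxycycline, or 0.417 and 0.287 CPM against 2.40 and 2.21 CPM. Both knockdown libraries lay far above both controls at a low level throughout, a 6.54-fold rise (log2 fold change 2.69, SE 0.37, edgeR adjusted p = 2.36e-05). DKK1 passed the filter on low counts only through the knockdown libraries, so it had to differ to be tested. Without that filter the edgeR adjusted p was 0.00166. Exons of PRKG1-AS1 overlap DKK1 on the other strand over 212 bases, and PRKG1-AS1 had 20 to 34 counts in each library and was not called.

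DKK3, a divergent family member not known as a strong LRP antagonist, was far more abundant than DKK1. It had 155 and 155 CPM in the controls and 152 and 152 CPM in the knockdown, close to equal (log2 fold change -0.03, SE 0.033, edgeR adjusted p = 0.488). Per kilobase of exon DKK3 was at 30.6 ± 0.0189 in the controls and 30.0 ± 0.0559 in the knockdown, against 0.160 ± 0.0419 and 1.04 ± 0.0608 for DKK1.

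APCDD1, a membrane glycoprotein that binds Wnt and LRP proteins and inhibits the pathway, went the opposite way to DKK1. Its counts were 33 and 54 under DMSO and 12 and 18 under doxycycline, or 1.97 and 3.10 CPM against 0.777 and 1.17 CPM. The groups did not overlap, but the control libraries differed widely from each other. The log2 fold change was -1.38 (SE 0.33, edgeR adjusted p = 0.00289), and without control replicate 2 it was -1.01 with an edgeR adjusted p of 0.0700.

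The promoter of DKK1 is shown because it was the only promoter window of a tested Wnt gene with a match to the TCF and LEF core. Promoter sequences were taken from RefSeq (GRCh38.p14), whose table held windows for 19 of the 29 tested genes, from 250 bases before to 50 after each start. AXIN2, DKK3, FZD2, FZD3, FZD6, FZD7, LRP6, WNT10B, WNT7B and ZNRF3 had no window and were not searched. Searched on both strands were CTTTGAA and CTTTGAT, the core bound by TCF and LEF factors, and TGGGAA, the core bound by RBPJ. The first was present in 1 of 25 windows of the tested genes and in 6.86% of all 35116 windows, the other in 4 of 25 and in 24.0%. The 250 bases before the start are printed 5′ to 3′ on the strand of the gene, at chr10:52314031-52314280 (plus strand) for DKK1 and chr4:108166302-108166551 (minus strand) for LEF1, a TCF family gene that fell. Capitals mark the match to CTTTGAA in DKK1, which begins 95 bases before the start, and to TGGGAA in LEF1, which begins 197 bases before the start.
DKK1: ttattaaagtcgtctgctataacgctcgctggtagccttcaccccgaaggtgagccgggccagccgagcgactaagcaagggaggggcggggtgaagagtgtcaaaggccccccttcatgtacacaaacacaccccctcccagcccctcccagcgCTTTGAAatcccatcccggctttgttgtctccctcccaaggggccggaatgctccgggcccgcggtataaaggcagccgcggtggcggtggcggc
LEF1: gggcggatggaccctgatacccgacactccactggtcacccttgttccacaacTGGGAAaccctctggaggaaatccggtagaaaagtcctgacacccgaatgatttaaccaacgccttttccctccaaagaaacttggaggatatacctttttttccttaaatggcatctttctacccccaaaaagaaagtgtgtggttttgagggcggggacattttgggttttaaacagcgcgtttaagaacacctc
A match describes these letters and is no evidence of binding. The other windows with TGGGAA or its complement belonged to TCF7, WNT5A and WNT9A, none of which was called.

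For the receptors that moved in opposite directions, the same stretch is shown for FZD1, which fell, at chr7:91264183-91264432 (plus strand), and for FZD5, which rose, at chr2:207769907-207770156 (minus strand). Neither holds any of the motifs searched, so no letters are in capitals.
FZD1: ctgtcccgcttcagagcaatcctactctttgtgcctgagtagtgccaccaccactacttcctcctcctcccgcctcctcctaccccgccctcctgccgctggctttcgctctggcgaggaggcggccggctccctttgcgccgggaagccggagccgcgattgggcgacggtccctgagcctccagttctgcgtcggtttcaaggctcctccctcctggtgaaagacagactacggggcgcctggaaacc
FZD5: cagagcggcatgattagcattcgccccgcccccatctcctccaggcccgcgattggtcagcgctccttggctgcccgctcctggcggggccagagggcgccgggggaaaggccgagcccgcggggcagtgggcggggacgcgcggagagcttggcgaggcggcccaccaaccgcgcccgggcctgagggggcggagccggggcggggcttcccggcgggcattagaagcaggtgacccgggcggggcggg
Both are rich in G and C, 65.2% for FZD1 and 76.8% for FZD5, against a median of 58.0% over all windows and 47.6% for LEF1. FZD1 has 19 and FZD5 30 CpG pairs in these bases, against a median of 11.

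Of the feedback genes, AXIN2 and AXIN1 rose and RNF43 and ZNRF3 fell, all but AXIN2 with calls that some alternatives ended. AXIN2, the inducible scaffold of the destruction complex and the most general readout of canonical Wnt signalling, had 8.76 and 7.91 CPM in the controls and 12.3 and 11.4 CPM in the knockdown. The groups did not overlap, and the level rose 1.42-fold (log2 fold change 0.51, SE 0.12, edgeR adjusted p = 0.00231). Exons of AC004805.1 overlap AXIN2 on the same strand over 1316 of its 5226 exon bases, and reads there cannot be assigned to either with certainty. AXIN1, the constitutive scaffold, had 94.1 and 87.6 CPM in the controls and 104 and 98.9 CPM in the knockdown, a 1.11-fold rise (log2 fold change 0.16, SE 0.050, edgeR adjusted p = 0.0171). That smaller call was lost without control replicate 2 (edgeR adjusted p = 0.158), without knockdown replicate 1 (0.0892), without the low-count filter (0.0626) and with scaling by library size alone (0.0782).

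RNF43 and ZNRF3 encode related membrane E3 ligases that remove Frizzled receptors from the cell surface, and their genes are Wnt targets in intestine. RNF43 had 4.83 and 4.93 CPM in the controls and 3.17 and 3.24 CPM in the knockdown. The knockdown libraries lay clearly below the controls (log2 fold change -0.60, SE 0.18, edgeR adjusted p = 0.0111). Its edgeR adjusted p was 0.0619 without control replicate 1 and 0.0626 without control replicate 2, and 0.113 with DESeq2. Most of the exon sequence of RNF43 is shared with other annotated genes, so the origin of its reads is uncertain. Of its 7505 exon bases, 4326 overlap AC004687.2 on the same strand, 1521 overlap TSPOAP1-AS1 on the other strand and 143 overlap SUPT4H1. ZNRF3 had 45.4 and 45.7 CPM in the controls and 40.5 and 42.2 CPM in the knockdown, a fall of 0.14 on the log2 scale (SE 0.047, edgeR adjusted p = 0.0230). The ZNRF3 call was lost when any of the 4 libraries was left out, with edgeR adjusted p of 0.0679 to 0.162, and DESeq2 gave 0.238.

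Of the 4 nuclear factors that carry beta-catenin to its targets, LEF1 and TCF7L2 fell and none rose. With so few genes, that split is no result beside the 24.9% lower and 25.1% higher of all tested genes. TCF7L2, the most abundant of the family here, had 42.7 and 41.6 CPM in the controls and 33.9 and 35.4 CPM in the knockdown. The groups lay apart, and the level fell by 0.28 on the log2 scale (SE 0.050, edgeR adjusted p = 2.72e-04). LEF1 had 23.0 and 21.4 CPM in the controls and 19.7 and 17.9 CPM in the knockdown, a fall of 0.23 (SE 0.086, edgeR adjusted p = 0.0338). The LEF1 call was lost without control replicate 1 (edgeR adjusted p = 0.197), without control replicate 2 (0.0601) and without knockdown replicate 2 (0.192), and with DESeq2 (0.168). LEF1-AS1, whose exons overlap LEF1 on the other strand over 279 bases, had 7 to 31 counts in each library.

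TCF7 was at 2.91 ± 0.746 and 2.14 ± 0.278 CPM and TCF7L1, which mostly acts as a repressor, at 1.72 ± 0.00619 and 2.07 ± 0.187 CPM. Neither was called (edgeR adjusted p = 0.161 and 0.429). Per kilobase of exon TCF7L2 was at 6.26 ± 0.117 in the controls and LEF1 at 4.14 ± 0.206, with TCF7L1 (0.391 ± 0.0014) and TCF7 (0.289 ± 0.0742) more than 10 times lower than either.

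**Figure D4:**
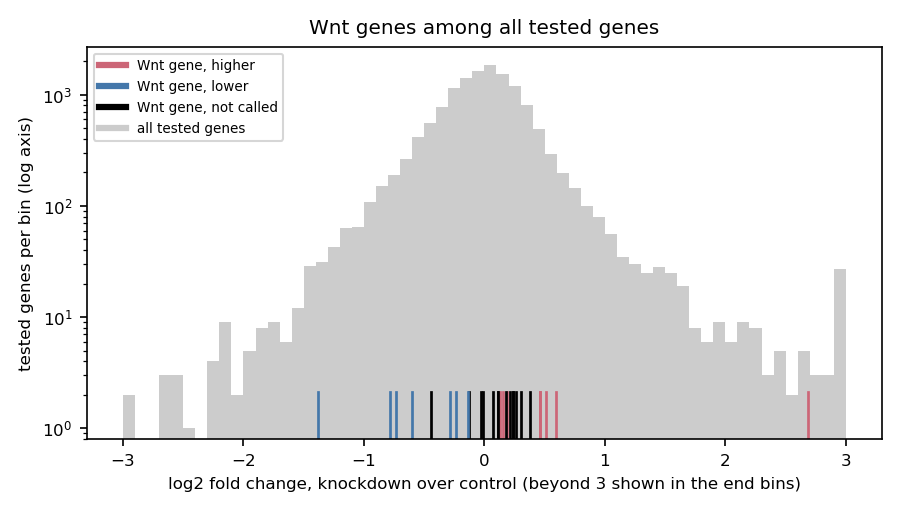
Histogram of log2 fold changes of all 13915 tested genes (grey, log count axis), with the 29 tested Wnt genes as short lines coloured by call. The Wnt genes lie within the spread of all tested genes, most of them near 0, with DKK1 at 2.69 and APCDD1 at -1.38.

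The rest of the pathway was read from 6 lists of genes outside the 52, chosen with earlier results of these data known. Their counts stand against 25.1% higher and 24.9% lower among all tested genes, and no list was tested as a set. Among 9 tested genes of Wnt secretion and of co-receptors outside the LRP pair, 2 rose and 2 fell (median log2 fold change 0.09). The glypican GPC6, a heparan sulfate proteoglycan, rose from 2.92 ± 0.0806 to 6.51 ± 0.494 CPM (edgeR adjusted p = 5.04e-05). KREMEN1, a receptor through which Dickkopf proteins remove LRP6, fell from 14.5 ± 0.894 to 9.72 ± 0.565 CPM (edgeR adjusted p = 5.46e-04). The pseudokinase co-receptors PTK7 (-0.18) and RYK (0.14) moved less, and their calls were lost without control replicate 1 (edgeR adjusted p = 0.0646 and 0.0687). The RYK call was also lost without knockdown replicate 1 (0.0518) and with scaling by library size alone (0.0807). Of 4 tested inhibitors outside the 52, TRABD2A, a membrane protease that cleaves Wnt proteins, rose from 39.9 ± 0.968 to 49.2 ± 0.764 CPM and none fell.

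Of 26 tested genes of the destruction complex and its transducers, 8 rose and 8 fell (median -0.03). Beta-catenin itself, CTNNB1, named as the effector of the pathway after its values were seen, had 284 and 298 CPM in the controls and 299 and 286 CPM in the knockdown. The groups overlapped (log2 fold change 0.0066, SE 0.030, edgeR adjusted p = 0.876). CTNNBIP1, an inhibitor that keeps beta-catenin from TCF factors, went down from 13.6 ± 0.328 to 5.90 ± 0.357 CPM (edgeR adjusted p = 1.08e-06). The casein kinase CSNK1G1, of a family that phosphorylates LRP6, fell by 0.67 on the log2 scale, and its relative CSNK1E rose by 0.33. DVL3, a Dishevelled protein that relays the signal from Frizzled, fell from 110.4 ± 3.33 to 81.7 ± 0.0358 CPM. The Dishevelled genes did not move one way. DVL2 fell from 36.8 ± 1.38 to 29.9 ± 1.19 CPM (edgeR adjusted p = 4.96e-04). DVL1 rose from 170 ± 0.623 to 186 ± 5.65 CPM (edgeR adjusted p = 0.00271). DVL1 and DVL2 were added after their values were seen.

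Among 17 tested nuclear cofactors, 6 rose and 8 fell (median -0.12). The Groucho-type corepressors, which bind TCF factors in the absence of beta-catenin, did not move one way. TLE1 and TLE3 rose from 19.0 ± 1.25 to 37.6 ± 1.36 CPM and from 62.4 ± 1.80 to 89.3 ± 4.68 CPM, and TLE4 from 1.90 ± 0.154 to 2.98 ± 0.27 CPM (edgeR adjusted p = 0.0331), whereas TLE2 fell from 27.7 ± 2.17 to 19.3 ± 2.55 CPM (edgeR adjusted p = 2.1e-04). TLE2 and TLE4 were added after their values were seen. The TLE4 call was lost without control replicate 1 (edgeR adjusted p = 0.146), without control replicate 2 (0.0794) and without knockdown replicate 1 (0.166), and with DESeq2 (0.211). AES, a short relative of the family, and the acetyltransferase CREBBP fell by 0.30 and 0.29 on the log2 scale. Among TLE1, TLE3, AES and CREBBP the highest edgeR adjusted p was 1.29e-06.

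Genes often used as targets of beta-catenin and TCF showed 10 rises and 5 falls among 19 tested (median 0.35). These shares of 52.6% and 26.3% stand beside 25.1% and 24.9% of all tested genes. L1CAM, counted among the rises, passed the low-count filter only by its knockdown libraries, so a difference was needed for it to be tested. Its counts went from 7 and 6 to 20 and 15, and it was named after its values were seen. EDN1, the vasoconstrictor peptide endothelin, rose from 11.8 ± 0.336 to 35.1 ± 0.696 CPM. The adhesion molecule NRCAM rose from 74.7 ± 0.282 to 169 ± 5.01 CPM, the proteoglycan VCAN from 21.3 ± 1.56 to 42.5 ± 1.53 CPM and MYC from a mean of 941 to a mean of 1332 CPM. These genes have many regulators besides TCF, and which of them acted was not tested.

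In the planar polarity and non-canonical branch 4 of 23 tested genes rose and 10 fell, or 17.4% and 43.5% beside the 25.1% and 24.9% of all tested genes (median -0.14). The calcium-dependent kinase CAMK2D rose from 102 ± 3.81 to 167 ± 0.106 CPM and the GTPase RHOA by 0.33 on the log2 scale. CELSR1, a cadherin of the planar polarity core, fell from 68.7 ± 1.11 to 45.3 ± 1.31 CPM and the GTPase RHOU by 0.50 on the log2 scale.

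**Figure D5:**
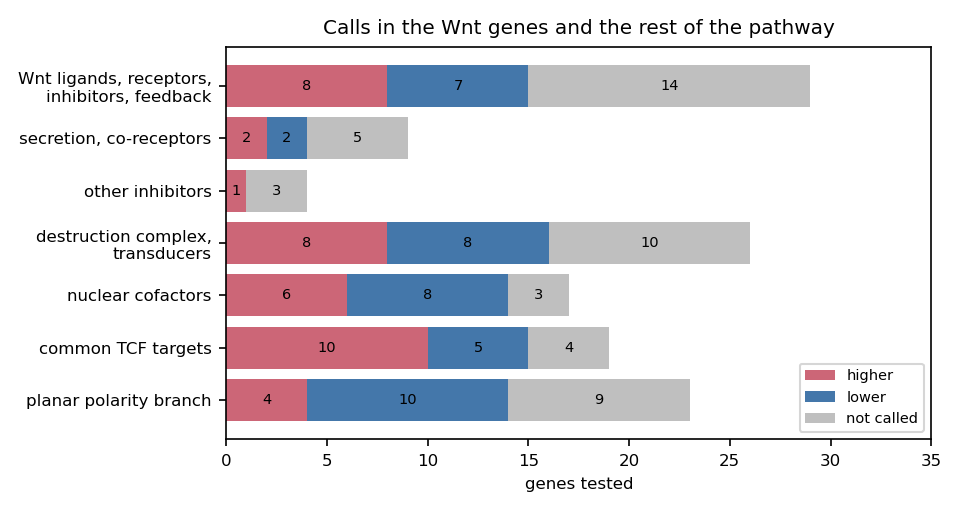
Number of tested genes called higher, lower or not called in the Wnt genes and in 6 further lists of the pathway. The Wnt genes divide into 8 higher, 7 lower and 14 not called, and the list of common TCF targets into 10, 5 and 4.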

How the data were processed

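Per the labels, 4 polyA RNA-seq libraries of SUM159 were made, 2 per group. The values the authors deposited are estimated counts without normalisation, 1 row per gene symbol, and 0 sample columns were left unused. Per the submitters' processing notes reads were aligned with STAR to GRCh37; the program that counted, its annotation and whether it used strand: not given in the sources used here. Before testing, values were rounded to integers (the 52 Wnt genes lay within 0.004 of one). Intervals and floors cover counting error only.

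Columns were matched to samples by name. Groups were compared with the two-sided quasi-likelihood test of edgeR 4.0.16 under R 4.3.3, with only the group in the model, TMM factors, filterByExpr (minimum count 10) and Benjamini-Hochberg adjustment over 13915 genes, checked on simulated data. Exon lengths and overlaps came from GENCODE release 29 (GRCh38). As alternatives, scaling was changed to RLE, to upper-quartile factors or to library size alone, and the filter to none or to a minimum of 1 CPM in 2 libraries. DESeq2 1.42.0, limma-voom (limma 3.58.1), glmTreat against a fold of 1.2, a block for replicate number and fits leaving out a single library were also run. Per-library values are given for genes that were called or had a mean of at least 5 CPM in the higher group, and up to 4 called genes were named per further list, by smallest adjusted p. The members and lists were chosen with earlier results of these data known. The 4 promoters printed, the pooling of FZD1 with FZD2, and CTNNB1, TLE2, TLE4, L1CAM, DVL1 and DVL2 were chosen after values were seen. L1CAM, DVL1 and DVL2 were not followed under the alternatives.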

Additional observations from a re-analysis of the deposited data

How the results depend on the processing

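No called Wnt gene changed direction under the 13 alternatives, and of their 195 values 160 kept the call and 35 lost it. With glmTreat against a fold of 1.2, 7 Wnt genes were called (4 higher, 3 lower), 2521 of all genes (1216 higher, 1305 lower) and 28 genes of the further lists (16 higher, 12 lower). DESeq2 called 10 Wnt genes, 4 of them lower, and 4965 of all genes, against 6970 in the main fit. Calls among all tested genes also became fewer whenever a library was left out. Leaving out a library in turn gave 9 to 15 called Wnt genes, 5 to 9 higher and 3 to 6 lower. The replicate number as a block called 17 Wnt genes, adding FZD3 and LRP6, and 7211 of all genes, while deviations of same-numbered libraries had a correlation of 0.19 across genes; the labels do not say that a number marks a shared culture. The values that changed sign belonged to CTNNB1 and to 4 Wnt genes, none of them called. CTNNB1 was -0.0031 with upper-quartile scaling, -0.039 with library size alone and -0.028 to 0.041 with a library left out. With a library left out the log2 fold change ranged from -0.047 to 0.48 for FZD8, from -0.32 to 0.39 for FZD9, from -0.47 to 0.52 for WNT2B and from -0.36 to 0.55 for WNT9A, and FZD9 was 0.018 with limma-voom; reversals included FZD9 at 0.22 without knockdown replicate 2 and WNT9A at -0.27 without control replicate 1. The cause was not tested. For the named genes of the further lists 264 values kept their call and 9 lost it. At these depths genes near 10 counts, such as FZD9 and WNT9A, had an SE of about 0.47 and 0.48, so changes of that size were not detectable.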
